A study of Mus musculus with 12 samples.

Results

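Cytochrome P450 genes of families 1 to 4 were described in the mucosa of the mouse ileum. The members were the genes whose single annotated symbol was Cyp, a family number from 1 to 4, 1 subfamily letter and a gene number. They were 48 of the 12393 genes on the arrays that carried a single symbol, and each was represented by the probe set with the highest mean over the 12 arrays. By family, 3 belonged to family 1, 31 to family 2, 5 to family 3 and 9 to family 4. Genes with a further letter, such as Cyp4a12a, fell outside the rule, as did 4 probe sets that the annotation gave to a pair of genes, among them the only one for Cyp4a10.

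Male C57BL/6 mice, 6 to 8 weeks old, were wild type or null for cytochrome P450 reductase (POR). All had been adapted for 14 days to RM3, a soya-free powdered diet. Controls stayed on it, and treated mice ate the same diet containing quercetin, a plant flavonol, at 6.2 g per kg (7 mg for each mouse). Sampling followed 24 h later. The epithelial layer of the ileum, the last of the equal parts into which the small intestine was divided, was scraped off. The 4 groups were wild type on control diet, wild type on quercetin, POR-null on control diet and POR-null on quercetin, with 3 Affymetrix 430A arrays each. Every array held RNA pooled from 3 mice, so the spread between arrays is that between pools. The tissues that lack the reductase are not named in the labels, and Por itself is not analysed here, so it gives no check of the genotypes. Values are taken as log2 expression levels, a scale inferred from their range and near-equal array medians and not stated in the labels; every difference and fold rests on it. Because probe sets differ in affinity, the level of one gene is not compared with that of another.

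P450 enzymes of families 1 to 3 oxidise drugs, plant compounds and other foreign chemicals, as well as steroids and fatty acids, and family 4 mainly hydroxylates fatty acids and eicosanoids at the end of the chain. They sit in the endoplasmic reticulum and take their electrons from POR, helped by cytochrome b5. Several are induced through receptors: the aryl hydrocarbon (Ah) receptor drives Cyp1a1, Cyp1a2 and Cyp1b1, the constitutive androstane receptor (CAR, gene Nr1i3) drives Cyp2b10, the pregnane X receptor (PXR, gene Nr1i2) drives Cyp3a11, and PPAR alpha drives Cyp4a genes. In the small intestine these enzymes act on ingested compounds before they reach the liver, and many are more abundant in its upper part than in the ileum.

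RefSeq (GRCm38.p6) promoter sequence was found for 39 of the 48 members. The 250 bases before the annotated start are shown for 6 genes on which the results turn: the 4 with the largest spread between pools, Cyp3a25, which had the smallest p between genotypes, and the Ah receptor target Cyp1a1. Capitals mark GCGTG, the core of the Ah receptor response element, and the nuclear receptor half-sites AGGTCA and AGTTCA, each searched on both strands.
Cyp2b10, chr7:25897408-25897657, plus strand: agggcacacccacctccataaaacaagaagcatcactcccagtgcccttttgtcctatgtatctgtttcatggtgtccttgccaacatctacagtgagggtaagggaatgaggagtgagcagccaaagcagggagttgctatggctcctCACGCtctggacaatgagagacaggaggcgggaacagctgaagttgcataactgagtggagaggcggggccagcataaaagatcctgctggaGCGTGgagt
Cyp3a11, chr5:145879855-145880104, minus strand: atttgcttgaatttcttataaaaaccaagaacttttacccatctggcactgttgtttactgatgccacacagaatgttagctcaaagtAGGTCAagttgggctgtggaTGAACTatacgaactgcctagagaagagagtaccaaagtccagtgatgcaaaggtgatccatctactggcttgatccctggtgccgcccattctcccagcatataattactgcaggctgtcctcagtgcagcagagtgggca
Cyp2c55, chr19:39006769-39007018, plus strand: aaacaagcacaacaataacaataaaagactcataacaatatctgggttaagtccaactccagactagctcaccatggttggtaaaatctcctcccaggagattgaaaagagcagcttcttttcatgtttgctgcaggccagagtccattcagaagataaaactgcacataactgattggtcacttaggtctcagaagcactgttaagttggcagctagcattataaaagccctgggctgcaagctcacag
Cyp2c65, chr19:39060756-39061005, plus strand: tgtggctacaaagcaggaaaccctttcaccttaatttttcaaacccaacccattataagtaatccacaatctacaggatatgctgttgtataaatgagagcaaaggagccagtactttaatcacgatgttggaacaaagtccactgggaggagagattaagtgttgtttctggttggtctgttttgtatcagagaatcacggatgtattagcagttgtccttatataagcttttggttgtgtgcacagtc
Cyp3a25, chr5:146009619-146009868, minus strand: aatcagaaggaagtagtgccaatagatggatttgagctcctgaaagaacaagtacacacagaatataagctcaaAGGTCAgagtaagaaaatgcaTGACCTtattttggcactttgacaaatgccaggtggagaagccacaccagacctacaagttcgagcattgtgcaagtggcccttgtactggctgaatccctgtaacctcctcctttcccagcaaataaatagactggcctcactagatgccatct
Cyp1a1, chr9:57697363-57697612, plus strand: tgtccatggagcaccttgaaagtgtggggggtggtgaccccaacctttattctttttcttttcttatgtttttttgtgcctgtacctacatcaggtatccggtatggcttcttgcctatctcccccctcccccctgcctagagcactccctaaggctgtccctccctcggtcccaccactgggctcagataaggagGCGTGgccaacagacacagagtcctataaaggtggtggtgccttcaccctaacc

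Cyp3a25 held AGGTCA at 2 places, Cyp3a11 held AGGTCA and AGTTCA once each, Cyp2b10 held GCGTG at 2 places and Cyp1a1 once. Neither Cyp2c55 nor Cyp2c65 held any of the 3 motifs in this window. Among the 39 members with a promoter, 28.2% held AGGTCA, against 14% of 32851 promoters of all genes. GCGTG was found in 23.1% of them against 28.2% of all, and AGTTCA in 10.3% against 11.8%. Members had 1 promoter each, the first listed, while the background counted every listed promoter, so the shares count unlike units. Members with AGGTCA include several of the same subfamily, such as Cyp2b9, Cyp2b13 and Cyp2b19. These matches describe the sequence, and the known distal enhancers of Cyp1a1 and Cyp2b10 lie outside the window.

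Many members gave a dim signal in the ileum. The mean over the 12 arrays lay above the upper quartile of all tested probe sets (7.30) for 15 members and below the lower quartile (4.74) for 13. The bright ones were Cyp2b10, Cyp2c55, Cyp2c65, Cyp2c68, Cyp2d26, Cyp2j6, Cyp2s1, Cyp3a11, Cyp3a13, Cyp3a25, Cyp4b1, Cyp4f13, Cyp4f14, Cyp4f16 and Cyp4v3. Signals of subfamily 4f, whose members omega-hydroxylate leukotrienes and fatty acids, ran from a mean of 4.36 for Cyp4f18 to 11.96 for Cyp4f14. In subfamily 3a, Cyp3a11 (median 10.32 over the arrays), Cyp3a13 (mean 10.48) and Cyp3a25 (mean 9.20) were bright, while Cyp3a16 and Cyp3a44 gave 3.08 and 3.51. Of the 11 Cyp2c genes 3 were bright and 2 lay below the lower quartile, and both Cyp4a genes, the classic PPAR alpha targets Cyp4a14 (3.79) and Cyp4a31 (3.52), lay below it. A dim probe set does not show that the gene was silent, since its affinity is unknown.

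**Figure D1:**
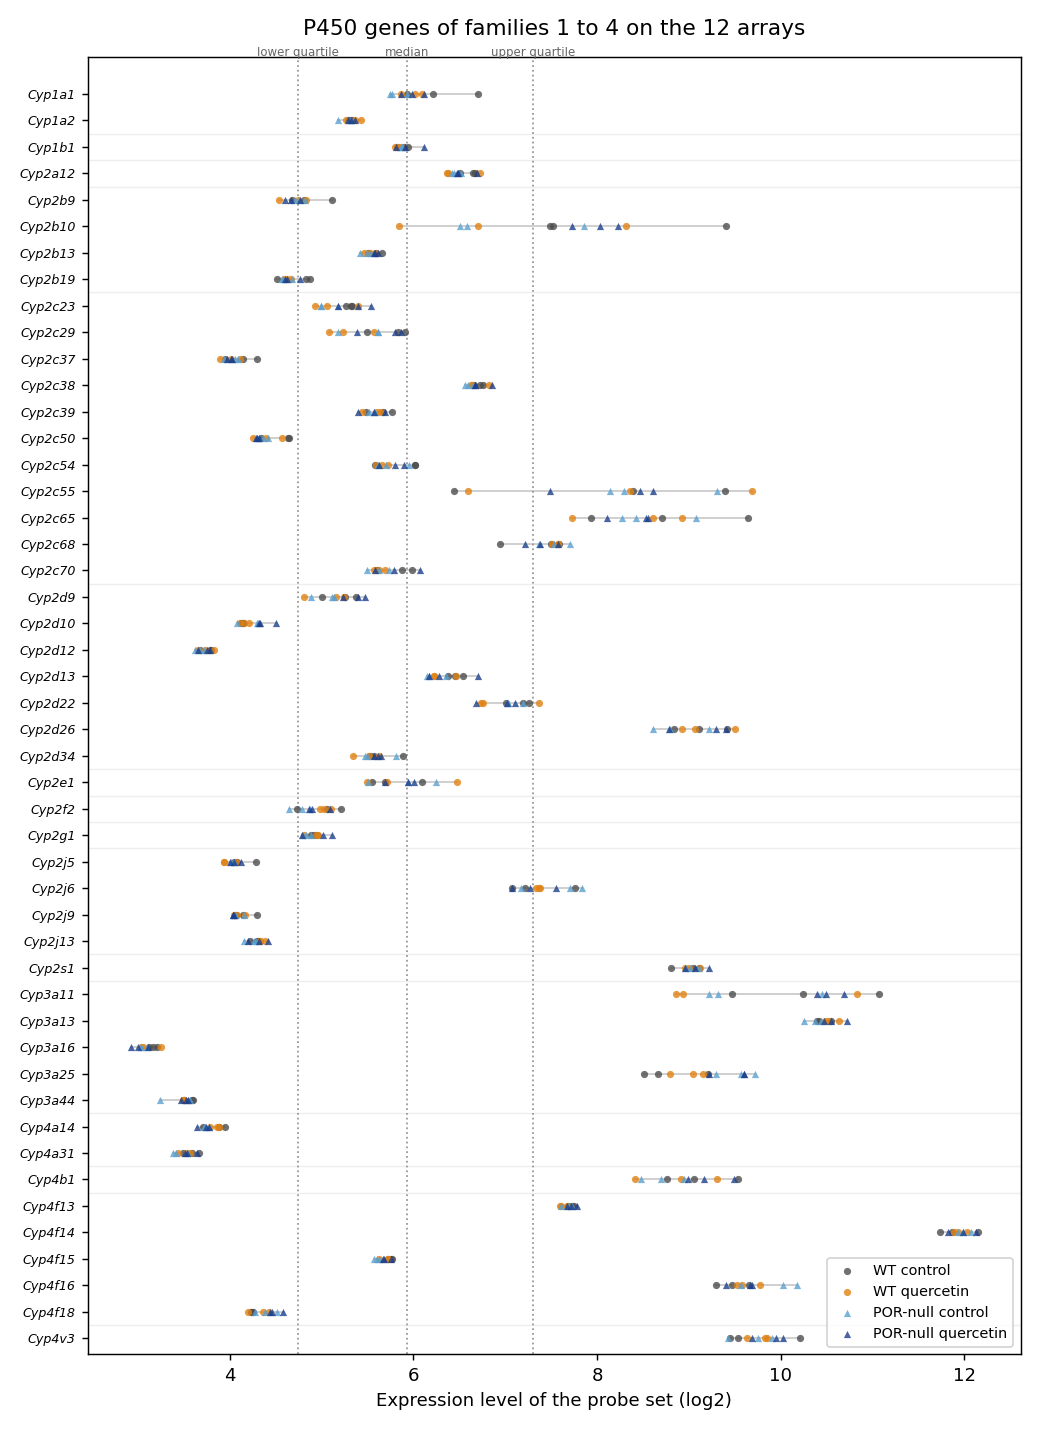
Log2 expression level (x axis) of the probe set of each of the 48 P450 genes (y axis, grouped by subfamily) on the 12 arrays, 1 point per array, with a grey line from the lowest to the highest array. Dotted lines are the quartiles of the mean levels of all tested probe sets (4.74, 5.93 and 7.30), and the widest lines are those of Cyp2b10 and Cyp2c55, with ranges of 3.56 and 3.25.

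The liver is the organ richest in these enzymes, and hepatocyte genes were checked as a possible admixture. Of 9 measured hepatocyte markers 3 were below the lower quartile (the fibrinogen chains Fga and Fgb at means of 3.75 and 3.96, and prothrombin, F2, at 4.65), and 3 were above the median of all probe sets (Ttr at 6.69, Tat at 6.74 and Apoh at 6.16). Albumin (Alb) lay between 5.50 and 5.91 on all arrays, and none of the 9 was above the upper quartile. The list score, the mean of its genes after centring each over the arrays, averaged 0.04 ± 0.02 and -0.04 ± 0.09 for the wild-type pools on the control and quercetin diets, against -0.06 ± 0.01 and 0.05 ± 0.01 for the POR-null pools (SD, n = 3). All 8 measured markers of intestinal epithelium were above the upper quartile. So were 5 of 7 ileal markers, among them the bile acid binding protein gene Fabp6 (mean 12.42), and 7 of 11 proximal markers, among them Apoa1 (13.85), Apoa4 (12.12), Mttp (11.48) and Rbp2 (10.80). Levels on these arrays therefore do not by themselves tell ileum from the upper intestine. The ileal bile acid transporter gene Slc10a2 ranged from 5.22 to 7.52 over the arrays and the hormone gene Fgf15 from 5.31 to 8.88.

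The pools differed widely in 4 members. The range over the 12 arrays was 3.56 for Cyp2b10, 3.25 for Cyp2c55, 2.21 for Cyp3a11 and 1.91 for Cyp2c65, and their residual SDs within groups were 0.92, 1.17, 0.77 and 0.58, against a median of 0.134 over the members and 0.109 over all probe sets. Next came Cyp2e1, the ethanol-oxidising P450, with 0.36. At the other end, Cyp4f15 and Cyp4f13 had 0.04 and 0.05. Thus bright members could be steady: Cyp3a13, the 3a gene best known from the intestine, ranged over 0.47, and Cyp4f14 over 0.41.

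The other bright members were steadier than these 4. Cyp4f14, which hydroxylates leukotriene B4, ran from 11.74 to 12.15 on the 12 arrays, and its differences in the 4 pairwise contrasts lay between -0.02 and 0.08 (SE 0.10 each). Cyp2s1, a P450 of epithelia, ran from 8.80 to 9.22, with differences from 0.04 to 0.06 (SE 0.09). For both, these differences were smaller than their SE, but without wild-type control replicate 2 Cyp4f14 differed by 0.15 ± 0.10 between the diets in wild type and by 0.19 ± 0.10 between genotypes on control.

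Cyp4v3, a fatty acid hydroxylase, ran from 9.43 to 10.21, and Cyp2d26 from 8.61 to 9.50. Cyp2j6, the intestinal gene of the epoxygenase subfamily 2j, ran from 7.07 to 7.84, and Cyp2c68 from 6.94 to 7.70. Their largest pairwise differences were 0.19 ± 0.18, 0.29 ± 0.20, -0.27 ± 0.18 and 0.21 ± 0.15, in this order, and the smallest limma adjusted p among these contrasts was 0.623. Without wild-type control replicate 2 the genotypes on control differed by 0.21 ± 0.14 for Cyp4v3, which turned its sign from -0.03, by -0.10 ± 0.21 for Cyp2d26, by 0.43 ± 0.17 for Cyp2j6 and by 0.31 ± 0.15 for Cyp2c68. The PPAR alpha target Cyp4a14, dim throughout, ran from 3.64 to 3.95 and differed by 0.00 ± 0.07 between the diets in wild type and by -0.02 ± 0.07 in POR-null.

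Cyp2b10, the CAR target, was at 7.49, 9.40 and 7.52 on the wild-type control arrays and at 8.31, 6.70 and 5.84 on the wild-type quercetin arrays. In POR-null it was at 7.86, 6.51 and 6.58 on control and at 8.03, 8.23 and 7.73 on quercetin. The POR-null quercetin pools lay close together, while every other group spanned over 1 log2 unit and the groups overlapped. Its group means were 8.14 ± 1.09, 6.95 ± 1.25, 6.98 ± 0.76 and 8.00 ± 0.25 in that order (SD, n = 3).

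Cyp3a11, the main PXR-induced P450 of mouse liver and intestine, had a like pattern. It was at 9.47, 11.07 and 10.24 in wild type on control, at 10.83, 8.86 and 8.94 on quercetin, at 10.45, 9.22 and 9.32 in POR-null on control, and at 10.49, 10.40 and 10.69 on quercetin. Replicate 2 of the wild-type controls and replicate 1 of the wild-type quercetin and POR-null control groups were high for both Cyp2b10 and Cyp3a11, and the 3 POR-null quercetin pools were high and tight for both. Across the 12 arrays the genes correlated with Pearson's r = 0.91 (permutation p = 3e-05, adjusted 0.0003) and Spearman's rho = 0.90 (permutation p = 0.00031, adjusted 0.0031), two-sided, and with r = 0.89 without the 2 arrays farthest from the Cyp3a11 median.

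The neighbouring genes Cyp2c55 and Cyp2c65 formed another such pair. Cyp2c55, an intestinal P450 that hydroxylates arachidonic acid, was at 6.44, 9.39 and 8.39 in wild type on control, at 8.36, 9.69 and 6.59 on quercetin, at 9.31, 8.29 and 8.14 in POR-null on control and at 8.61, 7.49 and 8.47 on quercetin. Cyp2c65 was at 7.93, 9.64 and 8.71, at 8.93, 8.61 and 7.73, at 9.08, 8.42 and 8.27, and at 8.55, 8.11 and 8.53 in the same order. Both were low on wild-type control replicate 1 and wild-type quercetin replicate 3, and no group stood apart. They correlated with r = 0.82 (permutation p = 0.0011, adjusted 0.0055) and rho = 0.83 (permutation p = 0.00162, adjusted 0.0081), and r was 0.78 without the 2 farthest arrays.

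These were 2 of 10 relations computed among these 4 genes and the score of proximal small intestine genes, with p adjusted over the 10; the genes were chosen for their spread. Between the pairs, Cyp2c65 had r = 0.71 with Cyp2b10 (permutation p = 0.0104, adjusted 0.0348) and 0.67 with Cyp3a11 (permutation p = 0.0157, adjusted 0.0393), which were 0.24 and 0.43 without the farthest arrays and so rested on them. Their rho of 0.62 and 0.59 did not pass (permutation p = 0.0347 and 0.0483, adjusted 0.116 and 0.121). Cyp2c55 had r = 0.37 and 0.34 with Cyp2b10 and Cyp3a11, with rho = 0.40 and 0.33 (permutation p from 0.2 to 0.296). With the proximal score, r was 0.57 for Cyp2b10, 0.52 for Cyp3a11, 0.06 for Cyp2c55 and 0.48 for Cyp2c65, with permutation p from 0.0549 to 0.846 and no adjusted p under 0.11, and rho was 0.33, 0.53, 0.03 and 0.18 (permutation p from 0.0792 to 0.939). Without wild-type control replicate 2, r with the proximal score was 0.21, 0.34, -0.32 and -0.04 in the same order. The probe sets of Cyp2b10 and Cyp2c65 are of a type (suffix s_at) that can share probes with related genes, so close paralogs may add to their signal. The same holds for the probe sets of 2 further members, Cyp2c23 and Cyp4v3, and Cyp2c23 had no other single-symbol probe set. The Cyp2b10 probe set without that suffix differed in the same directions as the chosen one in all 5 contrasts below.

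**Figure D2:**
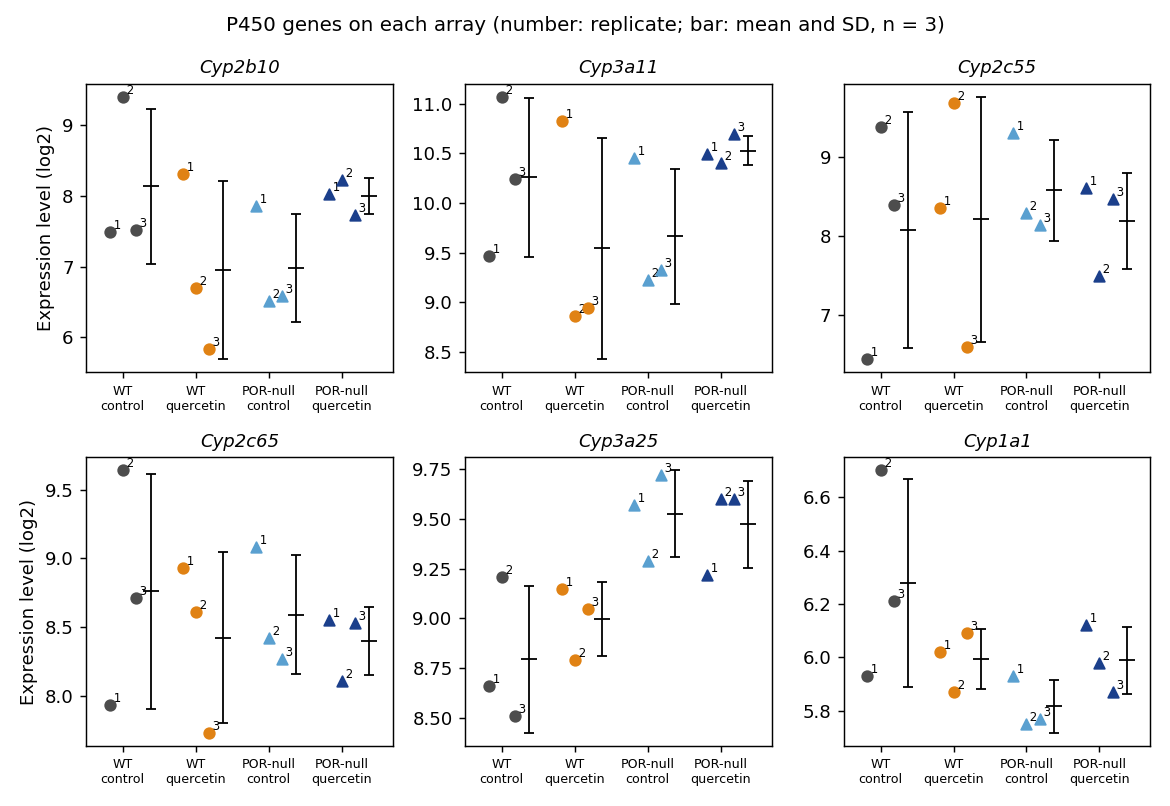
Log2 expression level (y axis) of 6 P450 genes on each array, by group (x axis), with the replicate number beside each point and the group mean and SD (n = 3) as a bar to the right. Cyp2b10 and Cyp3a11 are high and tight in POR-null on quercetin, and all 6 POR-null arrays of Cyp3a25, from 9.22 to 9.72, lie above all 6 wild-type arrays, from 8.51 to 9.21.

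One array accounted for many of the highest values. Wild-type control replicate 2 held the highest level of 15 of the 48 members (31.2%), against 13.6% of all 12393 genes, and the lowest of none. Among these 15 were Cyp1a1, Cyp2b9, Cyp2b10, Cyp2c29, Cyp2c65, Cyp3a11, Cyp4b1, Cyp4f14 and Cyp4v3, and 6 of the 15 bright members. This array lay at -25.57 on the first principal component of all probe sets, with the others between -10.80 and 10.56. It also had the highest score of 11 proximal small intestine genes, 0.76 against -0.41 to 0.34 on the others, and one of the lower scores of 7 ileal genes (-0.19, with the others from -0.27 to 0.34). Next was POR-null quercetin replicate 1, with the highest level of 8 members (16.7%, against 10.5% of all genes) and a proximal score of 0.15. Wild-type quercetin replicate 1 had a higher proximal score, 0.34, but the highest level of only 4 members (8.33%, against 7.52% of all genes). The part of the proximal genes in these P450 levels was not tested beyond the correlations above. Several results that use the wild-type controls are therefore also given without replicate 2.

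**Figure D3:**
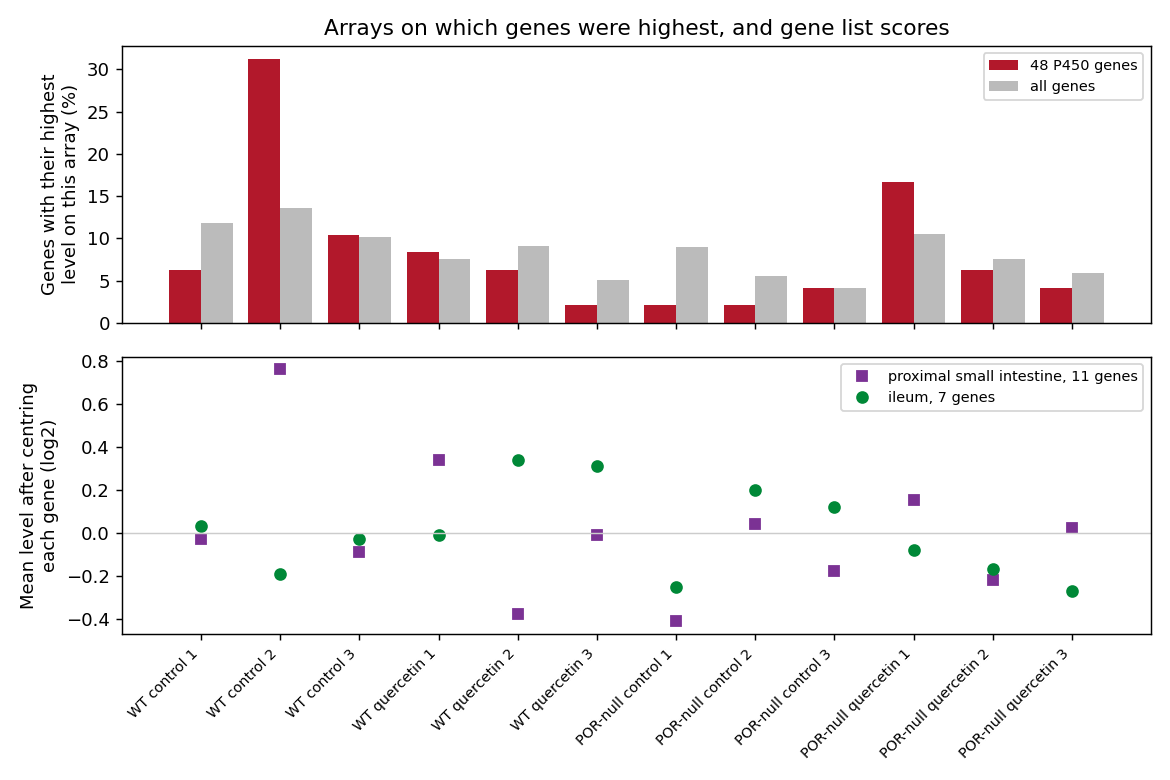
Top, percentage of the 48 P450 genes (red) and of all 12393 genes (grey) whose highest level was on each array (x axis). Bottom, mean log2 level of 11 proximal small intestine genes and 7 ileal genes after centring each gene; wild-type control replicate 2 has the largest share of the P450 genes (31.2%) and the highest proximal score (0.76).

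The first comparison asked which P450 genes differed between the diets in wild-type mice. None of the 48 members passed limma's test at an adjusted p under 0.05 (smallest 0.35), where 0.00442% of all probe sets passed. The smallest p belonged to Cyp2c29, a CAR- and PXR-responsive hepatic P450, which was at 5.50, 5.91 and 5.83 on control and at 5.23, 5.57 and 5.08 on quercetin. The ranges overlapped narrowly, and the difference was -0.45 ± 0.16 (log2, SE; limma adjusted p = 0.35), or -0.37 without wild-type control replicate 2. Cyp2b10 differed by -1.19 ± 0.58, with a 95% interval from -2.44 to 0.06, and by -0.55 without that replicate. Cyp3a11 differed by -0.72, and by -0.31 without it. Next were the renal epoxygenase gene Cyp2j5 (-0.16 ± 0.08) and Cyp2c54 (-0.22 ± 0.12), at -0.08 and -0.14 without it. The mean level of Cyp2j5, 4.05, lay below the lower quartile (4.74).

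Cyp1a1, the most sensitive Ah receptor target, was at 5.93, 6.70 and 6.21 in wild type on control and at 6.02, 5.87 and 6.09 on quercetin. The difference was -0.29 ± 0.15 (limma adjusted p = 0.502, 95% interval from -0.60 to 0.03) and -0.08 without control replicate 2. The other Ah receptor targets, Cyp1a2 and Cyp1b1, differed by 0.04 ± 0.07 and -0.06 ± 0.08. The upper bounds of the 95% intervals were 0.03, 0.19 and 0.11, so a doubling of the signal (1 on the log2 scale) of any of the 3 lay outside them. The intervals bound the signal and not the transcript. The mean levels were 6.02 for Cyp1a1, 5.31 for Cyp1a2 and 5.88 for Cyp1b1, near or below the median of all probe sets (5.93). How such signals follow the transcript was not tested. Over the members, 32 of 48 were lower on quercetin (33.3% higher, against 43% of all genes), with a median of -0.06 against -0.02 for all genes. With wild-type control replicate 2 left out 30 were lower (37.5% higher, against 44.1%). Among the 20 members above the median level of all probe sets 10 were lower (50% higher, against 49.7% of all genes), with a median of 0. Only Cyp4f13 (lower) and Cyp2j13 (higher) had arrays that did not overlap between the diets, by -0.09 and 0.07, where 7.93% of all genes did not overlap with lower and 5.24% with higher values.

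In POR-null mice the same comparison asked how these genes responded where the reductase was missing, as far as the deletion reached the ileum. Again 0 members passed (limma, smallest adjusted p = 0.697), as did 0% of all probe sets. The smallest p belonged to the arachidonic acid epoxygenase gene Cyp2c23, at 4.99, 4.99 and 5.18 on control and 5.18, 5.54 and 5.40 on quercetin. These groups met at 5.18, and the difference was 0.32 ± 0.12. The Cyp2c23 probe set is of the s_at type, so related genes may add to its signal. Cyp3a13 was at 10.37, 10.44 and 10.25 on control and 10.55, 10.47 and 10.72 on quercetin, with all quercetin pools above all control pools and a difference of 0.23 ± 0.08. Cyp2d9, known as a male-biased testosterone hydroxylase of the liver, was at 5.14, 4.88 and 5.11 on control and 5.40, 5.23 and 5.47 on quercetin (0.32 ± 0.12). Here too the groups did not overlap.

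Cyp4b1, which oxidises fatty acids and several protoxins, was at 8.95, 8.48 and 8.70 in POR-null on control and at 9.49, 8.99 and 9.16 on quercetin, again without overlap (0.50 ± 0.22, limma adjusted p = 0.727). Cyp4f16 differed the other way, by -0.34 ± 0.14, and its groups overlapped. Another probe set of Cyp4f16 differed by 0.02 ± 0.12, and a probe set shared with Cyp4f37 by -0.44 ± 0.13. Cyp2b10 and Cyp3a11 had larger differences, 1.01 ± 0.58 and 0.86 ± 0.49, with 95% intervals from -0.24 to 2.26 and from -0.18 to 1.91. Of the Ah receptor targets, Cyp1a1 differed by 0.17, Cyp1a2 by 0.05 and Cyp1b1 by 0.07. In all, 7 members were higher without overlap (8.3% of all genes) and 1 was lower (5.12% of all genes). Of the 48, 32 were higher on quercetin (66.7%, against 56% of all genes), with a median of 0.06 against 0.02.

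On the control diet, POR-null was compared with wild type. Cyp3a25, a 3a gene of liver and intestine, was at 8.66, 9.21 and 8.51 in wild type and at 9.57, 9.29 and 9.72 in POR-null. All 3 POR-null pools lay above all 3 wild-type pools. The difference was 0.73 ± 0.17 (log2, SE), or 1.66-fold, with a 95% interval from 0.37 to 1.10, and it had the smallest p of all members but did not pass (limma adjusted p = 0.266). Without wild-type control replicate 2 it was 0.94 ± 0.15 (limma adjusted p = 0.289). None of the 48 members passed, as did 0% of all probe sets.

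On this diet Cyp4f16 stood at 9.29, 9.47 and 9.65 in the wild-type pools and at 10.18, 9.57 and 10.03 in the POR-null pools, overlapping in 1 pool of each (0.46 ± 0.14, limma adjusted p = 0.364). A probe set shared by Cyp4f16 and Cyp4f37 differed by 0.58 ± 0.13, but another of Cyp4f16 itself by -0.07 ± 0.12, and the mean of the 2 single-symbol probe sets by 0.19, so the value depends on the probe set. Cyp1a1 differed by -0.46 ± 0.15, and by -0.25 without wild-type control replicate 2. Cyp4f15 (-0.15 ± 0.06) and Cyp2c23 (-0.25 ± 0.12) were lower in all POR-null pools than in any wild-type pool. Cyp2b10 differed by -1.15 ± 0.58 and Cyp3a11 by -0.60, and without that replicate by -0.52 and -0.19.

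As a group, 38 of 48 members were lower in POR-null on the control diet (20.8% higher, against 43.3% of all genes), with a median of -0.10 against -0.02. With wild-type control replicate 2 left out, 35 were lower (27.1% higher, against 43.3% of all genes) and the median -0.07. Among the 20 members above the median level of all probe sets 13 were lower (35% higher, against 52.4% of all genes in that setting). Members below that level were therefore lower more often. Of the 13, Cyp2c65 (from -0.17 to 0.27) and Cyp4v3 (from -0.03 to 0.21) turned higher without that replicate. No member of subfamilies 1a, 1b, 2a, 2b, 2f, 2g, 4a, 4b and 4v was higher, while 3 of 5 Cyp4f genes were. Without wild-type control replicate 2, however, Cyp4v3 (0.21) and Cyp2b9 (0.02) were higher. Subfamilies 1b, 2a, 2f, 2g, 4b and 4v held 1 member each. Without overlap, 2 members were higher (5.04% of all genes) and 5 lower (8.84% of all genes), so most of the lower members overlapped between genotypes. Across 18 markers of smooth muscle and stroma, the score averaged -0.26 ± 0.20 in the wild-type and 0.22 ± 0.56 in the POR-null controls (SD, n = 3), and its part in these differences was not tested. The score of 8 epithelial markers was 0.02 ± 0.03 and -0.01 ± 0.04 in the same groups. That of 11 proximal small intestine markers was 0.21 ± 0.47 and -0.18 ± 0.23, and its part was not tested either. In scrapings, fewer cells of a type and less RNA per cell cannot be told apart.

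On the quercetin diet, Cyp3a25 was again higher in POR-null, at 9.22, 9.60 and 9.60 against 9.15, 8.79 and 9.05 in wild type. The groups did not overlap and the difference was 0.48 ± 0.17, with a 95% interval from 0.11 to 0.84 (limma adjusted p = 0.62). Cyp2d10 (0.22 ± 0.08) had the smallest p and also did not overlap, whereas Cyp2c29 (0.39 ± 0.16), Cyp2d9 (0.30 ± 0.12) and Cyp2c23 (0.24 ± 0.12) overlapped. The Cyp2d10 signal was dim, with a mean of 4.23, below the lower quartile (4.74), and arrays from 4.08 to 4.50. Cyp2b10 and Cyp3a11 differed by 1.05 ± 0.58 and 0.98 ± 0.49. None of the 48 passed (smallest limma adjusted p = 0.603), as did 0% of all probe sets. The members were near the background here: 28 of 48 were higher (58.3%, against 55.8% of all genes), with a median of 0.04 against 0.02, and 3 were higher (7.58% of all genes) and 1 lower (5.36% of all genes) without overlap.

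Averaged over the diets, in a contrast added after these values were seen, Cyp3a25 was 0.61 ± 0.12 higher in POR-null, or 1.52-fold, with a limma adjusted p of 0.176. Leaving out each array in turn gave 0.53 to 0.71. Only without wild-type control replicate 2 did it pass (0.71 ± 0.10, limma adjusted p = 0.0405). With any other array left out the limma adjusted p ran from 0.158 to 0.394. That array held the highest Cyp3a25 level of the wild-type pools, 9.21. The quercetin effect on Cyp3a25, averaged over genotypes, was 0.08 ± 0.12. The smooth muscle and stroma score was also higher in POR-null on quercetin (0.24 ± 0.18 against -0.20 ± 0.38 in wild type), and its part in the Cyp3a25 difference was not tested.

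The interaction asked whether the quercetin difference was unlike in the genotypes. It was largest for Cyp2b10, 2.20 ± 0.82, with a 95% interval from 0.43 to 3.97 (limma adjusted p = 0.435), and for Cyp3a11, 1.58 ± 0.69, from 0.10 to 3.06 (limma adjusted p = 0.47). Both were lower on quercetin in wild type and higher in POR-null, though in neither genotype did the difference pass. Without wild-type control replicate 2 the values were 1.57 and 1.18. The Cyp2b10 probe set without shared probes gave 1.26 ± 0.55. The smallest p belonged to Cyp2c23 (0.50 ± 0.16, limma adjusted p = 0.413), followed by Cyp2c29 (0.67 ± 0.23) and, after Cyp2b10, by Cyp2d9 (0.47 ± 0.18) and Cyp4f16 (-0.49 ± 0.20). The other Cyp4f16 probe set gave 0.11 ± 0.17, and the one shared with Cyp4f37 gave -0.54 ± 0.19. For Cyp1a1 the interaction was 0.46, and 0.25 without wild-type control replicate 2.

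The interaction was positive for 40 of the 48 members (83.3%, against 57.5% of all genes), with a median of 0.14 against 0.03, including all 4 Cyp2b, all 7 Cyp2d and 9 of 11 Cyp2c genes. Without wild-type control replicate 2 it was positive for 35 (72.9%, against 57% of all genes), with a median of 0.10. Quantile normalization gave 35 (72.9%, against 54.8%) and centring arrays on their medians 34 (70.8%, against 48.8%). Among the 20 members above the median level of all probe sets 70% were positive, against 47.5% for all genes in that setting, and 6 were negative. Only 1 of the Cyp2b, 3 of the Cyp2d and 4 of the Cyp2c genes lay above that level. For several marker scores the quercetin difference was also unlike in the genotypes. In wild-type control, wild-type quercetin, POR-null control and POR-null quercetin pools, the score of 5 B cell markers averaged -0.18, 0.33, 0.08 and -0.22, and that of 7 ileal markers -0.06, 0.21, 0.02 and -0.17, both opposite in direction to most members. The hepatocyte score, given above, ran in the same direction as the members. So did the score of 11 proximal small intestine markers, which averaged 0.21, -0.02, -0.18 and -0.02 in the same order. Its mean in wild-type controls rested on replicate 2, at 0.76, with the others at -0.03 and -0.09. The part of these lists in the interaction was not tested. None of the 48 passed, as did 0% of all probe sets. The contrast shares all its arrays with those above and is no separate evidence of them. In a moderated F test over the 4 groups 0 of the 48 passed, against 0.00442% of all probe sets, and the smallest adjusted p was 0.318, for Cyp3a25.

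**Figure D4:**
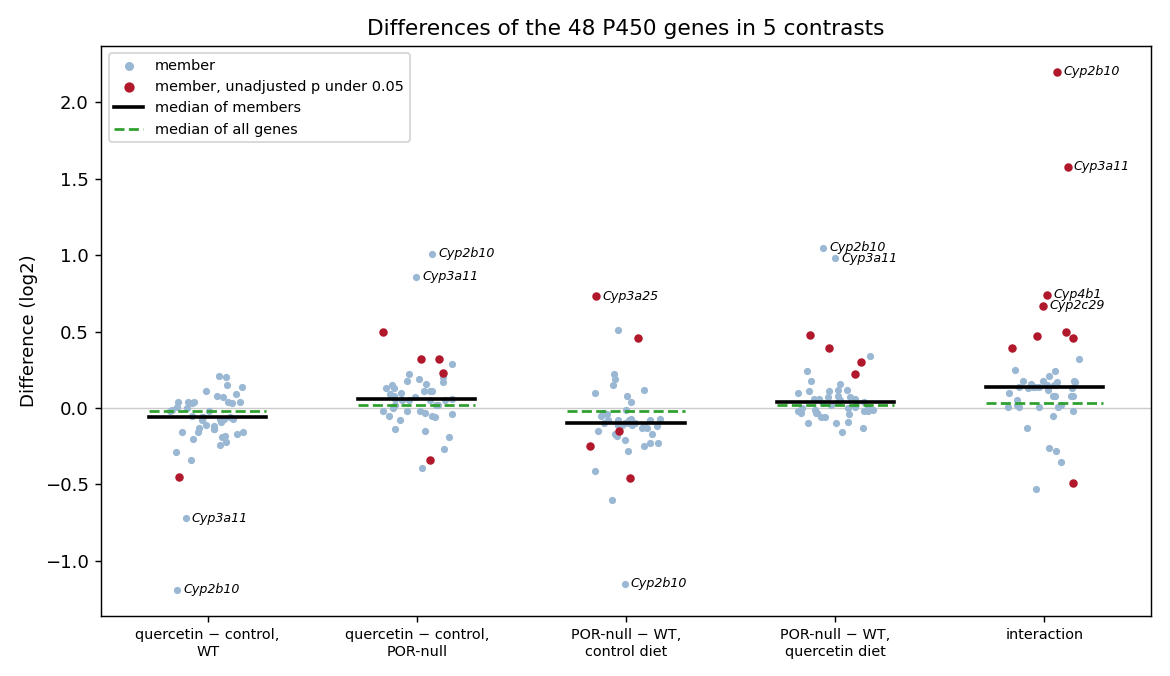
Log2 difference (y axis) of each of the 48 P450 genes in 5 contrasts (x axis), with genes beyond 0.6 named, members with an unadjusted p under 0.05 in red, and the medians of the members (black) and of all 12393 genes (green, dashed). The medians of the members run from -0.10 to 0.14, and Cyp2b10 and Cyp3a11 are the outermost points of the quercetin contrast in wild type and of the interaction; no member passed the adjusted threshold.

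At an unadjusted p under 0.05, limma counted 1 member for quercetin in wild type (2.08% of members, against 10.4% of all genes), 5 in POR-null (10.4%, against 7.08%), 5 for genotype on control (10.4%, against 10%), 4 for genotype on quercetin (8.33%, against 7.45%), 9 for the interaction (18.8%, against 11.1%) and 5 in the F test (10.4%, against 9.38%). The count in wild type rested on single arrays: it was 10 without wild-type control replicate 1, 3 without replicate 2 and 4 without replicate 3, and 6 and 2 without wild-type quercetin replicates 1 and 3. In POR-null it was 3 without control replicate 2 or 3 and 2 without quercetin replicate 1. On the control diet it was 10 without wild-type control replicate 1. On quercetin it was 7 when wild-type replicate 1 was left out and 2 when POR-null replicate 1 or 2 was. For the interaction it was 5 when replicate 2 of wild type on quercetin or of POR-null on control was left out, and 4 without replicate 3 of wild type on quercetin, replicate 3 of POR-null on control or replicate 1 of POR-null on quercetin. The shares of all genes with an array left out are not given here. These moves in the counts therefore cannot be read as particular to the P450 genes.

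Genes that work with the P450s were measured alongside. Of 16 listed electron donors and haem enzymes 14 were measured, and 0 passed in either direction in any of the 5 contrasts (limma). Alas1, the rate-limiting enzyme of haem synthesis and itself a CAR and PXR target, averaged 8.80 in wild-type controls, 8.65 in wild-type quercetin pools, 8.50 in POR-null controls and 8.75 in POR-null quercetin pools, and had the smallest p of the list in POR-null on quercetin (0.26 ± 0.10), for genotype on control (-0.31 ± 0.10) and for the interaction (0.41 ± 0.14). In wild type on quercetin it was the biliverdin reductase gene Blvra (0.22 ± 0.08), and for genotype on quercetin the cytochrome b5 gene Cyb5b (0.19 ± 0.10). The uroporphyrinogen decarboxylase gene Urod, of haem synthesis, differed by 0.20 ± 0.08 for genotype on control.

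Of 17 listed receptors and partners 16 were measured, and 0 passed in either direction in any contrast. The bile acid receptor gene Nr1h4 had the smallest p in wild type on quercetin (0.44 ± 0.12, limma adjusted p = 0.269), for genotype on control (0.58 ± 0.12, adjusted p = 0.224) and for the interaction (-0.63 ± 0.17, adjusted p = 0.351). Tiparp, an Ah receptor target that represses the receptor, differed by -0.21 ± 0.11 in wild type and 0.27 ± 0.11 in POR-null on quercetin, and by -0.41 ± 0.11 for genotype on control. Rxra, the partner of CAR, PXR and PPAR alpha, differed by -0.23 ± 0.10 in POR-null on quercetin. Without wild-type control replicate 2, 0 genes of these lists passed in the contrasts that use it, and Alas1, Nr1h4 and Tiparp differed by -0.26, 0.51 and -0.42 for genotype on control. Of 16 measured P450 genes of higher families 0 passed; the sterol demethylase gene Cyp51 had the smallest p for genotype on quercetin (0.46 ± 0.12, limma adjusted p = 0.426), and Cyp11a1 and Cyp21a1, steroid hormone P450s, in POR-null on quercetin (0.29 ± 0.08 and 0.21 ± 0.06, both adjusted p = 0.658).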

How the data were processed

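The authors deposited 1 value for each probe set on each array, taken here as log2 expression levels from their range and near-equal array medians, since the scale is not stated. MAS5 and RMA are named in the submitters' processing notes without a role or version, so which of them made the values is not given in the sources used here. From the 22690 probe sets, 64 array controls were removed, leaving 22626 to test, of which 20380 had a single symbol in the platform annotation. All 48 members matched RefSeq by gene ID with the same symbol, and 7 had several probe sets. Group means over the 12 arrays were estimated by limma 3.58.1 (R 4.3.3; lmFit and eBayes, with 8 residual and 5.59 prior degrees of freedom). The Benjamini-Hochberg adjustment covered every tested probe set, at a threshold of 0.05. Relations across arrays used 100000 permutations. The fit was tested on simulated data. The p-values measure the spread between pools, and the number of arrays limits the precision.

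The members and lists were chosen with earlier results of these data known. Named were the 5 members of smallest p in each contrast, the 5 of largest residual SD, those above the upper quartile of levels and the textbook inducible ones. Contrasts averaged over diets or genotypes were added after seeing the data. Figures used Python 3.11.15, pandas 2.3.3 and matplotlib 3.10.9.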

Additional observations from a re-analysis of the deposited data

How the results depend on the processing

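In each of the 5 contrasts and in the F test, 0 of the 48 members passed limma's test under every alternative run: quantile normalization, centring arrays on their medians, leaving out probe sets below the lower quartile or the median of levels, a trended, robust eBayes, weighting of arrays, the replicate block, only the arrays compared (not for the interaction or the F test), averaging the probe sets of each gene, other probe sets where a gene had one without shared probes, and leaving out each array. The smallest adjusted p of any member in these settings was 0.116, for genotype on control. The medians of the members ran from 0.09 to 0.16 for the interaction, -0.13 to -0.07 for genotype on control, -0.08 to 0 for quercetin in wild type, 0.03 to 0.10 for quercetin in POR-null and 0 to 0.06 for genotype on quercetin. Of the named differences recomputed in every setting, the sign changed for Cyp1a1 between genotypes on quercetin, which stood at 0 (-0.07 to 0.06), and for no other. Not all named genes were recomputed in every setting. Without wild-type control replicate 2 the sign turned for some of the rest, such as Cyp4v3, given above, and Cyp2c65. Cyp2c65 went from -0.34 to 0.10 for quercetin in wild type and from -0.17 to 0.27 for genotype on control. Cyp4f16 depends on the probe set, as given above. The Cyp2b10 interaction ran from 1.26 to 2.88 and that of Cyp3a11 from 1.18 to 2.22. Centring arrays on their medians gave 34 members with a positive interaction (70.8%, against 48.8% of all genes) and 11 higher in POR-null on control (22.9%, against 47.6%). Keeping only probe sets above the median level left 20 members. The labels give all groups replicate numbers 1 to 3 but nothing that ties pools of one number; their deviations correlated at -0.18 to 0.16 over 18 pairs, and 5 of 12 arrays correlated best with their own number. With the replicate number as a block, 0 members passed, while calls over all probe sets went from 1 to 5 for quercetin in wild type and from 0 to 3 for the interaction; Cyp3a25 for genotype on control had an adjusted p of 0.319.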
